A study of Mus musculus with 8 samples.

Results

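The genes described here are 43 cell cycle genes, 18 that act in S phase and 25 that act in mitosis, out of 34745 genes in the count table. They were taken by symbol: each listed symbol was matched to its Ensembl mouse identifier, all 43 matched, and all 43 passed the filter on low counts. Messenger RNA was sequenced from mouse bone-marrow-derived macrophages (BMDM), primary macrophages grown from marrow cells in 20 ng/ml macrophage colony-stimulating factor (M-CSF). The 4 groups of 2 libraries were wild-type (WT) cells and KAT8-deficient cells, each left untreated or given R848 at 100 ng/ml for 6 h. KAT8 is a histone H4 acetyltransferase, and R848 (resiquimod) is a small molecule that activates the RNA sensor TLR7. The labels call the deficient cells KAT8-cKO. The sources used here do not give the mouse strain, the age or the Cre driver, nor say whether replicate libraries stem from different animals or cultures. P-values therefore measure only the spread between these libraries, which may be technical.

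A cell that is about to divide copies its DNA in S phase and separates the copies in mitosis. S phase genes are driven in large part by E2F factors once the RB proteins have been phosphorylated by cyclin-dependent kinases. Mitotic genes peak later and are controlled through the CHR and CCAAT elements of their promoters, which bind the DREAM complex, MuvB with B-MYB and FOXM1, and NF-Y. Macrophages in culture divide in response to M-CSF, and stimulation of Toll-like receptors is known to slow that division.

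All libraries held 18550977 to 21384532 counts, and each member had between 85 and 3797 counts in every library. Kat8 itself stood at 17.0 and 17.9 CPM (counts scaled to the library total) in untreated WT cells and 18.03 and 16.0 under R848. Without KAT8 it stood at 8.76 and 10.8 when untreated and 9.94 and 10.4 under R848, so the transcript was lower in all 4 libraries and not absent. The log2 difference was -0.83 ± 0.13 (SE) untreated, with an adjusted p of 0.0113 by edgeR's quasi-likelihood test. The labels do not name the deleted exons, and the counts cover the whole gene. All 12 macrophage markers were detected, and they summed to 15722 to 17160 CPM in WT libraries and 9532 to 10562 in KAT8-deficient ones. Most of that sum was Lyz2, the lysozyme of myeloid cells, at 11028 to 12139 CPM in WT and 5202 to 5944 in KAT8-deficient libraries, and the other 11 markers summed to 4330 to 5020 CPM over the 8 libraries. Markers of stromal and endothelial cells were also detected, 12 of 13 at a mean of 1 CPM or more. Their summed level was 3311 and 3830 CPM in untreated WT cells and 2776 and 2979 in WT cells under R848. Without KAT8 it was 4838 and 4599 in the untreated state and 4168 and 4073 under R848. The largest were the collagens Col1a1 (601 to 1157 CPM) and Col1a2 (1046 to 1672). Of the endothelial genes, Pecam1 was at most 0.16 CPM and Cdh5 stood at 0.21 to 1.87, while Kdr stood at 19.5 to 38.1. Blood stem and progenitor markers summed to 24.6 to 30.6 CPM in WT libraries and 38.2 to 42.97 in KAT8-deficient ones. Nearly all of it was Cd34, at 22.6 to 29.4 CPM in WT and 35.6 to 39.9 in KAT8-deficient libraries. Kit stood at 0.47 to 2.55 CPM, Ly6a, Mecom and Hlf stayed under 1 CPM, and Flt3 was at 0. Erythroid markers summed to at most 0.38 CPM. Lyz2 and the stromal, the progenitor, and the mast and basophil sums differed between genotypes without overlap. The mast and basophil sum was 6.69 to 7.87 CPM in WT and 8.54 to 10.54 in KAT8-deficient libraries, nearly all of it Gata2. The stromal and the mast and basophil sums were also lower under R848 in each genotype. The sum of the other 11 macrophage markers overlapped between genotypes, at 4509.7 to 5020.1 CPM in WT and 4329.9 to 4618.5 in KAT8-deficient libraries. Within that sum the complement genes C1qa, C1qb and C1qc were each higher in all 4 KAT8-deficient libraries, opposite to Lyz2. C1qa, for example, stood at 72.1 to 85.0 CPM in WT and 94.1 to 122.3 in KAT8-deficient libraries. The remaining markers of the sum each overlapped. The erythroid, the granulocyte, and the T, B and NK sums overlapped between genotypes too. What part these marker levels had in the results below was not tested. In bulk samples, a larger share of dividing cells and more of a transcript per dividing cell cannot be told apart.

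Promoter sequences are shown for members that passed a test in at least 1 pairwise comparison, because the S phase and mitotic classes differ in the letters near their start sites. Each runs from 100 bases before the RefSeq transcription start to 50 after it (150 bases, GRCm38.p6, 5′ to 3′ on the gene's strand). Capitals mark E2F letters (TTTCCCGC, TTTCGCGC, TTTGCCGC or TTTGGCGC), CHR letters (TTTGAA or TTCGAA) and CCAAT, each searched on both strands. The first 4 belong to S phase genes and the last 4 to mitotic genes.
Rrm1: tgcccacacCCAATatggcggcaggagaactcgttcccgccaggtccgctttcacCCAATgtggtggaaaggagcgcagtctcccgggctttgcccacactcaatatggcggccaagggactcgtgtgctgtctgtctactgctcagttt
Pcna: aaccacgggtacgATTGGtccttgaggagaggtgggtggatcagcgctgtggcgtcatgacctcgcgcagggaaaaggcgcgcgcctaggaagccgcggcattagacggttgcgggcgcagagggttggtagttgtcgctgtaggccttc
Cdt1: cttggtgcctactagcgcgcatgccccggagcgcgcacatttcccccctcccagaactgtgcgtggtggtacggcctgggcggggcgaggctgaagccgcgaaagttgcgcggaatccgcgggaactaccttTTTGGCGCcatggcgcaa
Mcm7: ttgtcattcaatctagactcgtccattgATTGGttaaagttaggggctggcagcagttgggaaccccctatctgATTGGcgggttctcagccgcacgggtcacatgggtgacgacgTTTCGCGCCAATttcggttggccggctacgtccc
Ube2c: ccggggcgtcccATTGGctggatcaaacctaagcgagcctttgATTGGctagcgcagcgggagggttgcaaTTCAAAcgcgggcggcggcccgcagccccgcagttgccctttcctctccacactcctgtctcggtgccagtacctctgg
Cenpf: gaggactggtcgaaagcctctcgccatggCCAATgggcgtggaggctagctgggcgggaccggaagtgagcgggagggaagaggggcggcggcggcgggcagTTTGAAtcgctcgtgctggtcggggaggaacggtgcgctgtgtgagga
Kif11: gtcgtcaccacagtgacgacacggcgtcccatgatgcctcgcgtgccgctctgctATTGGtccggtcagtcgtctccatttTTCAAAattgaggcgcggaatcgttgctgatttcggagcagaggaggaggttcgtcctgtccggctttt
Mki67: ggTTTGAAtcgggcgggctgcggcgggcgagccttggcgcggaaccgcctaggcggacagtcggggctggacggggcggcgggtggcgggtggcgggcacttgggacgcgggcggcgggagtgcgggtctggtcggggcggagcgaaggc

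The windows lie at chr7:102441595-102441744 (plus strand) for Rrm1, chr2:132253131-132253280 (minus) for Pcna, chr8:122567915-122568064 (plus) for Cdt1 and chr5:138171834-138171983 (minus) for Mcm7. They lie at chr2:164769829-164769978 (plus) for Ube2c, chr1:189688037-189688186 (minus) for Cenpf, chr19:37376282-37376431 (plus) for Kif11 and chr7:135716330-135716479 (minus) for Mki67. Mcm7 has another RefSeq start, whose window (chr5:138171217-138171366, minus) is not shown and holds 0 E2F letters, 0 CHR letters and 1 CCAAT. Cdt1 and the Mcm7 window shown hold E2F letters after the start, beginning at base 32 and base 16 with the start base counted as 0. In that Mcm7 window the last C of the E2F letters is also the first base of a CCAAT. Rrm1 and Pcna hold CCAAT letters only. Each of the 4 mitotic promoters holds CHR letters, beginning at base -29 in Ube2c, 2 in Cenpf, -19 in Kif11 and -98 in Mki67.

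Over the full RefSeq window of 300 bases (250 before the start and 50 after), 36 of the 43 members had a promoter entry, 39 promoters in all, of which 17 belong to S phase and 22 to mitotic genes. E2F letters were in 41.18% of the S phase promoters (7 of 17), in 4.55% of the mitotic ones (1 of 22, Cdk1) and in 2.26% of all 32851 promoters. CHR letters were in 77.27% of the mitotic promoters (17 of 22), in 11.76% of the S phase ones (2 of 17) and in 19.23% of all. CCAAT was common to both classes, at 86.36% of the mitotic and 64.71% of the S phase promoters against 37.41% of all. With a shorter E2F core (GGCGC or CGCGC) the classes were close, at 88.24% and 77.27%, against 41.44% of all promoters. These are matches of letters, not binding measured in these cells.

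Every member was expressed, and the S phase genes were the more abundant class. Levels are compared here as CPM per kilobase of exon, averaged over the 8 libraries. Exon length counts every exon base over all annotated transcripts of a gene, so it can exceed the length of 1 mRNA and ranks are approximate. Rrm1, for example, had a mean of 142 CPM, an exon length of 11012 bases and 12.9 CPM per kilobase. By CPM alone the median was 44.1 for S phase and 20.8 for mitotic genes. The S phase median was 10.3, from 1.56 for Ccne2 to 68.4 for Pcna, the sliding clamp of DNA polymerase. After Pcna came Cdt1 (17.9), which loads the MCM helicase on origins, and the helicase subunit Mcm6 (17.1). The mitotic median was 4.204, from 1.29 for the kinetochore protein Cenpf to 16.5 for Cdc20, an activator of the anaphase-promoting complex. Plk1, a mitotic kinase, followed at 11.3 and the proliferation marker Mki67 at 10.4. Single members varied little across the study. The highest library exceeded the lowest by 1.12 (E2f1) to 1.89 times (Gins2) among S phase genes, and by 1.14 (Tpx2) to 1.52 times (Kif23) among mitotic ones. Pcna is uncertain in level because its near-identical pseudogene Pcna-ps2 held 64.2 to 88.2 CPM, and reads could be split between them.

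**Figure D1:**
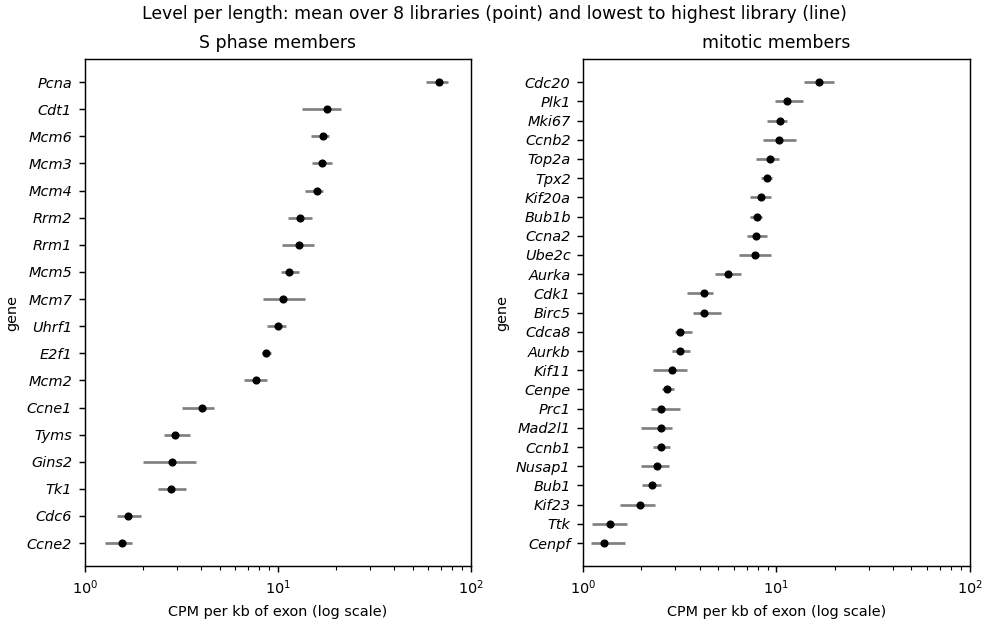
Level of each member as CPM per kilobase of exon on a log axis, S phase genes on the left and mitotic genes on the right. Points are means over 8 libraries and lines run from the lowest to the highest library. Pcna leads at 68.4, and the lines are short beside the spread between genes.

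The 18 S phase genes as a class were lower under R848 in both genotypes. These 18 genes and the 25 mitotic genes were, as classes, higher in KAT8-deficient cells. The mean log2(CPM + 0.5) of the 18 S phase genes was 5.09 ± 0.01 (SD, n = 2) in untreated WT cells, 4.98 ± 0.03 in WT cells under R848, and without KAT8 it was 5.23 ± 0.01 untreated and 5.08 ± 0.03 under R848. No 2 groups overlapped except KAT8-deficient cells under R848 with untreated WT cells, whose libraries stood at 5.06 and 5.09 against 5.08 and 5.09. The 25 mitotic genes stood at 4.35 ± 0.04, 4.32 ± 0.02, 4.52 ± 0.03 and 4.50 ± 0.06 in the same order. Their libraries split by genotype, with all 4 KAT8-deficient libraries (4.46 to 4.54) above all 4 WT ones (4.31 to 4.38), and overlapped between R848 and untreated cells of either genotype. The S phase mean thus changed with R848 by -0.10 in WT and -0.15 in KAT8-deficient cells (pooled SD 0.02), and the mitotic mean by -0.03 and -0.02 (pooled SD 0.04). The genotype differences were 0.14 and 0.10 for S phase and 0.18 and 0.18 for mitotic genes, untreated and under R848. These class means carry no p-value, because the members were chosen with results known.

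The contrast between the classes, S phase minus mitotic, was 0.74 ± 0.05 and 0.66 ± 0.01 in WT cells and 0.70 ± 0.04 and 0.58 ± 0.08 in KAT8-deficient cells, untreated and under R848. R848 shifted it by -0.08 in WT and -0.13 in KAT8-deficient cells, 1 pooled SD being 0.05. The value in KAT8-deficient cells rests in part on single libraries, at -0.07 without R848 library 1 and -0.18 without R848 library 2. The genotype shifts were -0.03 untreated, within 1 SD, and -0.08 under R848, where leaving out those libraries gave -0.03 and -0.14.

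**Figure D2:**
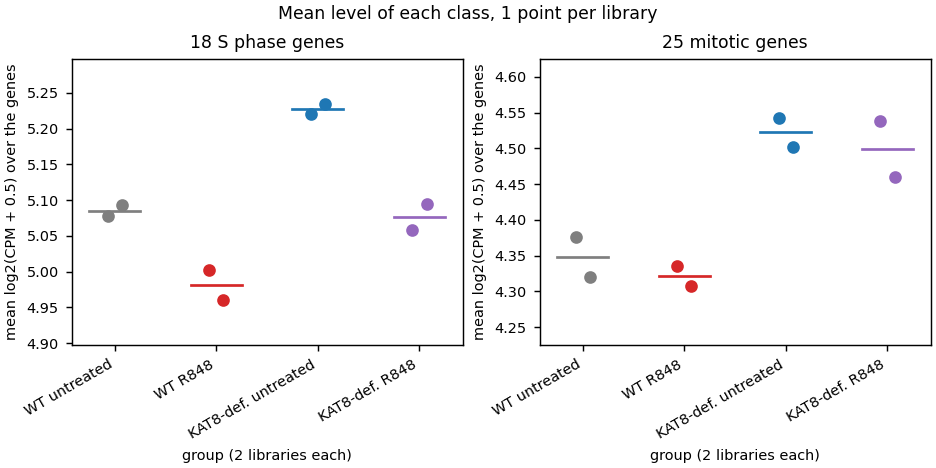
Mean log2(CPM + 0.5) of the 18 S phase genes (left) and the 25 mitotic genes (right), 1 point per library, lines at group means; both axes span 0.4 and do not start at 0. S phase points are lower under R848 in each genotype, and all 4 KAT8-deficient points of the mitotic panel lie above the 4 WT points.

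R848 lowered a few S phase genes in WT cells and left most members without a call. Of the 18 S phase genes, 4 fell (Cdt1, Mcm7, Pcna and Rrm1) and 0 rose, and of the 25 mitotic genes 1 rose (Mki67) and 0 fell, by edgeR's quasi-likelihood test with Benjamini-Hochberg adjustment over all genes. Among all 14040 genes tested, 13.6% were called, 6.94% higher and 6.7% lower, so 4 of 18 lower S phase genes is above that background and 1 of 25 mitotic genes is below it. The median log2 change was -0.12 for S phase genes, with 6 of 18 above 0, and -0.04 for mitotic genes, with 10 of 25 above 0. Over all genes it was -0.002, with 49.62% above 0. The licensing and replication group held 3 of the falls, and its median was -0.17 over 11 genes. The 3 G1/S regulators, E2f1, Ccne1 and Ccne2, had 0 calls.

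Rrm1, the large subunit of ribonucleotide reductase, which makes deoxynucleotides (chr7:102441695-102469771), stood at 144 and 137 CPM in untreated WT cells and at 118 and 116 under R848. The groups did not overlap, and the log2 change was -0.27 ± 0.06 (SE; adjusted p = 0.0199, edgeR). Pcna (chr2:132249162-132253314) went from 177 and 164 to 142 and 140.4 CPM, a change of -0.27 ± 0.06 (adjusted p = 0.0192, edgeR). Both calls were lost without WT untreated library 1 or either WT R848 library. The changes were then -0.25 to -0.29 for Rrm1 and -0.23 to -0.29 for Pcna. In the 4 WT libraries alone Pcna was not called either (-0.27, adjusted p = 0.052, edgeR), so that call also rests on the spread of the KAT8-deficient libraries. In the pseudogene Pcna-ps2 the log2 value was -0.23, with an adjusted p of 0.0907 by edgeR.

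Cdt1 (chr8:122568015-122573554) had the largest fall of a member, from 54.0 and 63.9 to 41.8 and 46.3 CPM. Its log2 change was -0.42 ± 0.10 (adjusted p = 0.0214, edgeR). The call was lost in the 4 WT libraries alone (-0.42, adjusted p = 0.0515, edgeR). It was also lost without WT untreated library 2 (-0.29) or WT R848 library 1 (-0.36). Mcm7, a subunit of the replicative helicase (chr5:138164583-138172422), went from 47.9 and 47.1 to 37.2 and 38.8 CPM, a change of -0.32 ± 0.09 (adjusted p = 0.043, edgeR). Leaving out any library but the 2 of untreated KAT8-deficient cells ended that call (adjusted p from 0.0535 to 0.197), and so did the DESeq2 Wald test (adjusted p = 0.0686). Mcm7 overlaps Cops6 and Ap4m1 on the other strand and the strand setting of the counting is not given, so its counts are uncertain. The other helicase subunits stayed without a call, from -0.20 for Mcm4 to 0.12 for Mcm3, and Mcm6 went from 80.3 and 81.1 to 74.5 and 69.6 CPM (-0.16, adjusted p = 0.135, edgeR).

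Mki67, whose protein coats mitotic chromosomes (chr7:135689784-135716361), went the other way, from 99.99 and 89.8 CPM to 114 and 112. The groups did not overlap and the log2 change was 0.25 ± 0.07 (adjusted p = 0.0404, edgeR). The call held without WT untreated library 1 and was lost without any of the other 7 libraries (adjusted p from 0.0589 to 0.206), and with DESeq2 (adjusted p = 0.0906). Among mitotic genes the next smallest p-values were those of Cdk1, the kinase that starts mitosis, at -0.23 ± 0.09 (21.2 and 20.1 to 18.5 and 16.9 CPM, adjusted p = 0.149, edgeR), and of Kif20a, a kinesin of cytokinesis, at -0.10 (34.9 and 34.6 to 31.7 and 33.2 CPM).

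In KAT8-deficient cells R848 gave 0 called members, by edgeR and by DESeq2. Calls were rare throughout this comparison, at 0.634% of all genes tested (0.499% higher, 0.135% lower). At an unadjusted p under 0.05, edgeR had 5 S phase genes, all lower (Mcm3, Mcm7, Cdt1, Gins2 and Rrm1), and 0 mitotic genes, against 13.8% of all genes (7.26% higher, 6.58% lower). The median log2 change was -0.17 for S phase genes, with 2 of 18 above 0, and -0.04 for mitotic genes, with 9 of 25 above 0, against 50.54% of all genes. Without KAT8-deficient R848 library 1, 5 S phase and 5 mitotic genes were above 0, and without untreated library 1, 14 mitotic genes were. All 11 licensing and replication genes and all 4 nucleotide synthesis genes had values below 0.

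Mcm7 stood at 61.5 and 52.2 CPM in untreated KAT8-deficient cells and at 44.8 and 45.9 under R848 (log2 -0.33 ± 0.09, adjusted p = 0.157, edgeR). Rrm1 stood at 170.4 and 164 against 148 and 140.3 CPM (-0.21 ± 0.06, adjusted p = 0.174), and Mcm3 at 62.6 and 71.5 against 59.4 and 56.3 (-0.21 ± 0.08, adjusted p = 0.279). None of these groups overlapped, which in this comparison held for 13 of 18 S phase and 5 of 25 mitotic genes in the lower direction, and for 23.0% of all genes tested. The mitotic genes with the smallest p-values were Cdc20 at -0.18 (37.1 and 36.1 to 34.9 and 29.8 CPM), Cenpf at 0.18 (19.6 and 21.6 to 25.4 and 21.4) and the checkpoint protein Bub1b at -0.11 (35.7 and 32.5 to 32.2 and 31.1).

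Loss of KAT8 went with slightly higher levels of most members in untreated cells, and 1 passed the test. Ube2c rose, while 0 S phase genes were called and 0 members fell, in a comparison in which 4.27% of all genes were called (2.91% higher, 1.36% lower; edgeR). The median log2 difference was 0.15 for S phase genes, with 16 of 18 above 0, and 0.18 for mitotic genes, with 22 of 25 above 0. Over all genes it was -0.007, with 48.61% above 0. Under the alternatives, which include leaving out each library, 16 to 17 S phase and 20 to 22 mitotic genes were above 0. At an unadjusted p under 0.05, 4 S phase and 6 mitotic genes were higher and 0 lower, against 20.3% of all genes (11.4% higher, 8.85% lower). The libraries did not overlap for 28 of 43 members in the higher direction, against 24.9% of all genes, and for 1 in the lower (Ccne1), against 25.5%.

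Ube2c encodes the ubiquitin-conjugating enzyme of the anaphase-promoting complex (chr2:164769898-164778822). It stood at 16.5 and 17.5 CPM in untreated WT cells and 17.7 and 17.7 under R848, and without KAT8 at 24.5 and 23.1 untreated and 21.4 and 22.3 under R848. All 4 KAT8-deficient libraries lay above all 4 WT ones. The untreated difference was 0.48 ± 0.09 (adjusted p = 0.0242, edgeR), and it missed the threshold without any 1 of the 4 untreated libraries (0.43 to 0.53, adjusted p from 0.0592 to 0.159). Under R848 it was 0.31 ± 0.09 (adjusted p = 0.0529).

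The members with the next smallest p-values had log2 differences above 0 in both classes. Rrm1 stood at 170.4 and 164 CPM against 144 and 137 in WT (0.25 ± 0.06, adjusted p = 0.0569, edgeR). Tyms, which makes thymidylate, stood at 19.6 and 21.3 against 15.6 and 16.9 (0.33 ± 0.10, adjusted p = 0.102), and Tk1, the thymidine kinase of S phase, at 17.3 and 16.3 against 12.6 and 14.3 (0.32 ± 0.10, adjusted p = 0.129). The nucleotide synthesis genes were the only S phase group in which all members had libraries without overlap, 4 of 4. Cdc20 stood at 37.1 and 36.1 against 26.4 and 30.4 CPM (0.36 ± 0.10, adjusted p = 0.0892) and Kif23, a kinesin of the central spindle, at 18.6 and 16.6 against 14.2 and 12.2 (0.41 ± 0.13, adjusted p = 0.118). Tk1 overlaps Afmid and Cdc20 overlaps Elovl1 on the other strand, so their counts are uncertain. Of the 43 members, 10 overlap another gene of 1 CPM or more in this way, among them Kif20a, which overlaps Cdc23.

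Under R848 the KAT8-deficient cells had 4 members called higher and 0 lower: Rrm1 and Pcna among S phase genes, and Cenpf and Kif11 among mitotic ones. The share called over all genes was 13.6% (8.14% higher, 5.47% lower; edgeR), so 4 of 43 is near the background of higher calls. The medians were 0.18 for S phase genes, with 14 of 18 above 0, and 0.17 for mitotic genes, with 23 of 25 above 0. The libraries did not overlap for 30 of 43 members in the higher direction, against 29.2% of all genes, and for 5 in the lower, against 30.3%. Under the alternatives 11 to 15 S phase and 22 to 23 mitotic genes were above 0.

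Rrm1 stood at 148 and 140.3 CPM against 118 and 116 in WT cells under R848, a log2 difference of 0.30 ± 0.06 (adjusted p = 0.0119, edgeR). Pcna stood at 163 and 167 against 142 and 140.4 (0.23 ± 0.06, adjusted p = 0.0423). Rrm1 was not called without either WT R848 library or KAT8-deficient R848 library 1 (adjusted p from 0.0739 to 0.0794). Pcna was not called without any 1 of the 6 libraries other than untreated WT (adjusted p from 0.061 to 0.163), nor by DESeq2 (adjusted p = 0.0831), and was still called in the 4 compared libraries alone. Cdt1 stood at 53.2 and 57.6 against 41.8 and 46.3 CPM, with the largest S phase difference above 0, at 0.33 ± 0.10, and missed the threshold (adjusted p = 0.0542). At the other end were Ccne1, cyclin E1, at 9.47 and 8.54 against 12.4 and 10.3 CPM (-0.34 ± 0.13, adjusted p = 0.133), and Mcm3 at 59.4 and 56.3 against 67.9 and 67.2 (-0.22 ± 0.08, adjusted p = 0.0967).

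Cenpf (chr1:189640606-189688086) stood at 25.4 and 21.4 CPM against 17.2 and 17.8, a difference of 0.42 ± 0.11 (adjusted p = 0.045, edgeR). Kif11, the kinesin that pushes spindle poles apart (chr19:37376403-37421859), stood at 25.8 and 22.3 against 19.1 and 17.2 (0.41 ± 0.11, adjusted p = 0.04996). In both genes KAT8-deficient R848 library 1 was the highest of all 8, and without it the differences were 0.29 (adjusted p = 0.226) and 0.30 (adjusted p = 0.237). Leaving out either WT R848 library or either untreated KAT8-deficient library also ended both calls (adjusted p from 0.0615 to 0.23), leaving out either untreated WT library ended that of Kif11 (0.0522 and 0.0525), and DESeq2 called neither (0.0944 and 0.101).

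**Figure D3:**
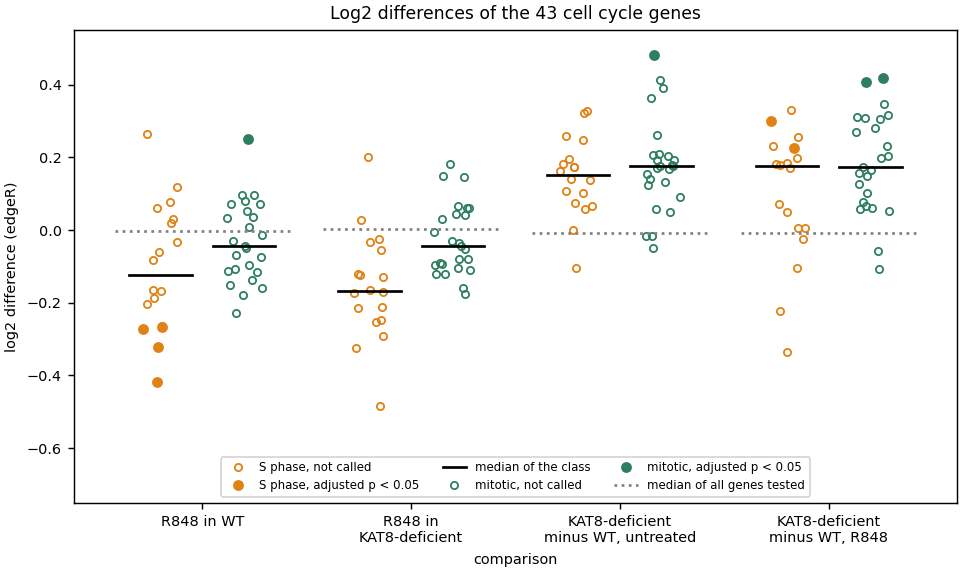
Log2 difference of each of the 43 genes in 4 comparisons, S phase genes in orange and mitotic genes in green; filled points passed an adjusted p of 0.05 (edgeR), bars are class medians and dotted lines the median of all genes tested. The S phase bars lie at -0.12 and -0.17 for R848, and all 4 genotype bars lie between 0.15 and 0.18.

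The 2 R848 responses share no libraries, and their difference was tested as an interaction. By edgeR 0 members were called, and 0 by DESeq2, where edgeR called 0.228% of all genes (0.057% higher, 0.171% lower). Mcm3 alone had an unadjusted p under 0.05, against 11.4% of all genes (5.88% higher, 5.51% lower). Its response was 0.12 ± 0.08 in WT and -0.21 ± 0.08 in KAT8-deficient cells, and the interaction was -0.33 ± 0.11 (adjusted p = 0.288, the smallest of any member). Its levels were 61.1 and 63.3 CPM in untreated WT cells and 67.9 and 67.2 under R848, against 62.6 and 71.5 and then 59.4 and 56.3 without KAT8. Among mitotic genes the smallest p-values were those of Mki67 (-0.19 ± 0.09, adjusted p = 0.495), the checkpoint kinase Bub1 (0.28 ± 0.19) and Ube2c (-0.17 ± 0.12). The responses of Rrm1 and Mcm7 in the 2 genotypes differed by 0.05 ± 0.08 and -0.003 ± 0.12. After Mcm3, the S phase genes with the smallest p-values were Pcna and Mcm6. Without KAT8, Pcna went from 183 and 177 CPM to 163 and 167 under R848, and Cdt1 from 65.5 and 66.5 to 53.2 and 57.6. Both falls were smaller than those in WT cells, but neither interaction was called. Mcm6 stood at 82.4 and 85.6, then 80.5 and 84.7 CPM, without KAT8. That Rrm1, Pcna, Cdt1 and Mcm7 were called in WT cells alone is therefore not a shown difference between genotypes.

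Averaging the genotype difference over both states, a contrast added after seeing the data, gave 15 members called higher and 0 lower. The share called over all genes was 18.6% (11.0% higher, 7.56% lower; edgeR). The 6 S phase genes were Mcm7, Cdt1, Pcna, Rrm1, Tyms and Tk1, and the 9 mitotic genes were Ccnb2, Cdk1, Plk1, Cenpf, Kif11, Kif20a, Kif23, Cdc20 and Ube2c. Of all members 40 of 43 were above 0 (16 of 18 S phase, 24 of 25 mitotic), against 47.63% of all genes, and the exceptions were Ccne1 (-0.22), Mcm3 (-0.06) and Bub1b (-0.08). All 4 KAT8-deficient libraries lay above all 4 WT ones for 13 of 43 members, against 9.42% of all genes: 11 of 25 mitotic and 2 of 18 S phase genes. They lay below for 0 members, against 6.6% of all genes.

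By role, 4 of 5 kinetochore and motor genes, both anaphase promoters (Cdc20 and Ube2c) and 3 of 4 nucleotide synthesis genes were called. Among spindle checkpoint genes 0 of 4 were called, among chromosome and spindle genes 0 of 7, and among G1/S regulators 0 of 3. Over all genes 11.0% were called higher, so 0 calls in groups this small is near that share. Of the chromosome and spindle genes, Top2a, Prc1 and Nusap1 each had every KAT8-deficient library above every WT one, and the others overlapped. Differences between roles were not tested. Ube2c had the largest averaged difference at 0.39 ± 0.06 (adjusted p = 0.00345, edgeR) and Rrm1 the smallest p-value at 0.27 ± 0.04 (adjusted p = 0.00298). These 2 calls held without any 1 library. Plk1 stood at 21.6, 24.7, 21.7 and 22.3 CPM in the WT libraries and 27.5, 25.9, 30.3 and 25.6 in the KAT8-deficient ones (0.28 ± 0.08, adjusted p = 0.0392). Ccnb2, cyclin B2, stood at 13.3, 14.0, 13.0 and 15.01 against 19.0, 16.9, 19.4 and 15.4 (0.35 ± 0.10, adjusted p = 0.0367). The other 13 calls were each lost without at least 2 single libraries: the count fell to 1 of 18 S phase genes without WT R848 library 1 or KAT8-deficient untreated library 1 or R848 library 2, and to 1 of 25 mitotic genes without WT R848 library 2 or KAT8-deficient untreated library 1. DESeq2 called 3 and 2.

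The averaged R848 response, also added after seeing the data, gave 0 members higher and 4 lower, all S phase genes: Cdt1 (-0.34 ± 0.07, adjusted p = 0.0117, edgeR), Mcm7 (-0.32 ± 0.06, adjusted p = 0.00915), Rrm1 (-0.24 ± 0.04, adjusted p = 0.00633) and Pcna (-0.20 ± 0.04, adjusted p = 0.017). Over all genes 14.8% were called (7.53% higher, 7.31% lower). The first 3 held without any 1 library, and Pcna missed the threshold without WT R848 library 1 or 2 or KAT8-deficient untreated library 1 (adjusted p from 0.0527 to 0.0614). Of the 25 mitotic genes 0 were called by edgeR in either direction, with 1 (Mki67) at an unadjusted p under 0.05 against 30.2% of all genes, and 0 by DESeq2. All 4 R848 libraries lay below all 4 untreated ones for 1 member (Mcm7), against 5.61% of all genes, and above them for 1 (Mki67), against 6.68%.

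**Figure D4:**
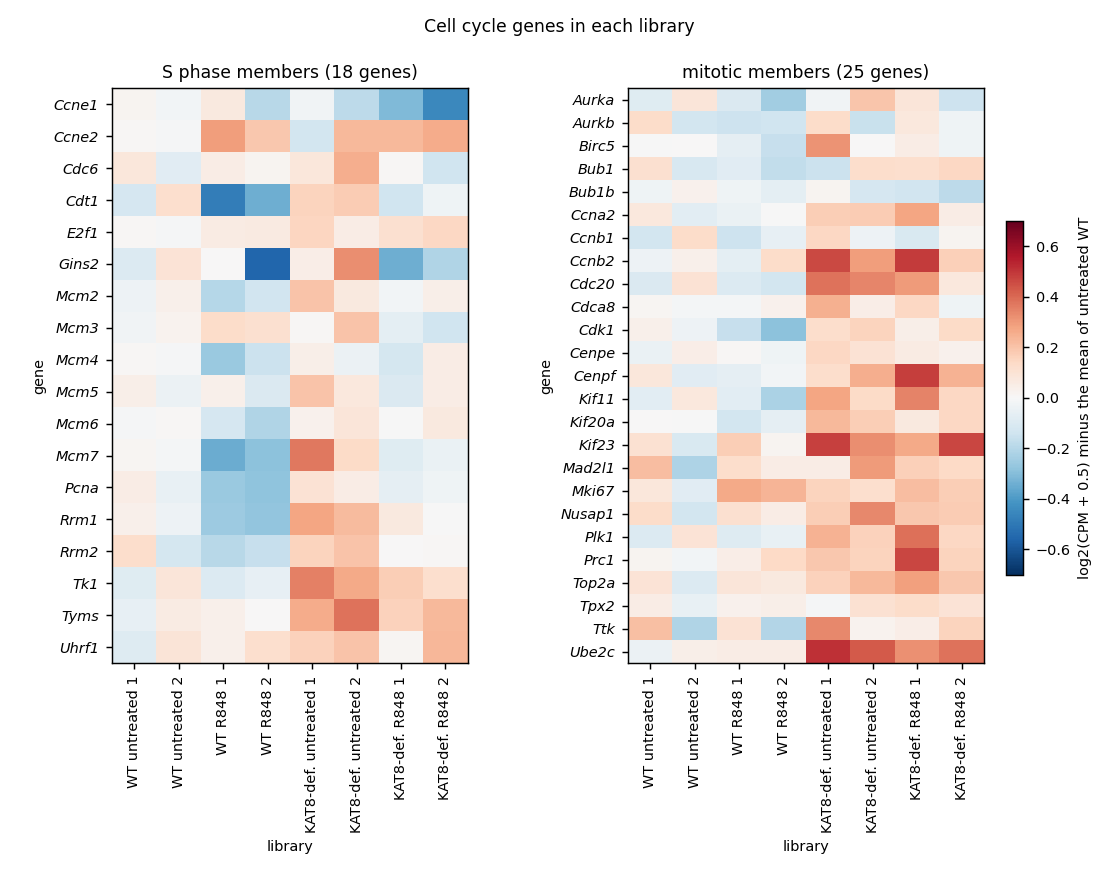
Log2(CPM + 0.5) of each member in each of the 8 libraries minus its mean in untreated WT cells, genes in rows, red higher and blue lower. Blue blocks under R848 in WT cells include those of the called genes Cdt1, Mcm7, Pcna and Rrm1. Genes without a call are blue there too, such as Cdk1 in both libraries and Gins2 in library 2 alone (8.17 CPM). Red covers most mitotic genes in the 4 KAT8-deficient libraries.

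Further genes of the same pathways, listed by function, were tested in the same fit. Of 51 further mitotic genes the median genotype difference was 0.15 untreated and 0.15 under R848, with 40 and 45 of 51 above 0, and 1 gene was called higher in each, against 2.91% and 8.14% of all genes: Cks1b, a CDK-binding protein, untreated (0.40 ± 0.09, adjusted p = 0.0459, edgeR) and the cytokinesis scaffold Anln under R848 (0.28 ± 0.06, adjusted p = 0.0208). Of 35 further S phase genes the medians were 0.0007 and 0.07, with 18 and 26 above 0. Their median R848 response was -0.05 in WT cells, with 14 of 35 above 0, and 0.02 in KAT8-deficient cells, with 18 of 35 above 0. The S phase means given above, lower under R848 and higher without KAT8, are thus those of the 18 members. The further mitotic genes had median R848 responses of -0.02 and -0.01, with 22 and 24 of 51 above 0. Between genotypes under R848, 2 of the 35 were called higher (Chaf1a, a histone chaperone subunit, 0.31, and Dtl, which directs Cdt1 to degradation, 0.44) and 1 lower (Pola2, a polymerase alpha subunit, -0.46), against 8.14% and 5.47% of all genes. R848 in WT cells lowered Chaf1a (-0.41) and raised Pola2 (0.53) and, among the mitotic genes, the tubulin Tubb4b (0.30), against 6.7% of all genes lower and 6.94% higher. Chaf1a went from 28.3 and 29.5 to 21.5 and 21.95 CPM and Pola2 from 21.4 and 19.6 to 31.1 and 28.1. Chaf1a overlaps Ubxn6 on the other strand, so its level is uncertain. These counts of called genes are below the shares of all genes. Each of these calls was lost without at least 2 single libraries of the groups compared. 

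Regulators of the cycle had a few calls. Of 9 D-type cyclins and G1 kinases, 7 CDK inhibitors and 20 RB, E2F and DREAM factors, R848 in WT cells raised 1, 0 and 0 and lowered 0, 0 and 2, against 6.94% of all genes higher and 6.7% lower. Without KAT8, 1, 0 and 1 were higher and 0, 1 and 1 lower in untreated cells, against 2.91% and 1.36%, and 0, 1 and 1 were higher and 0, 1 and 0 lower under R848, against 8.14% and 5.47%. Cdkn1c encodes p57, an inhibitor of cyclin-dependent kinases. It stood at 188 and 207 CPM in untreated WT cells and 165 and 166 under R848, and without KAT8 at 37.6 and 39.3 untreated and 40.3 and 36.1 under R848. All 4 libraries without KAT8 were far below the WT ones, with log2 differences of -2.36 ± 0.08 untreated and -2.11 ± 0.08 under R848 (adjusted p = 7.05e-06 and 1.02e-05, edgeR). Rbbp4, a histone-binding subunit of MuvB and of several chromatin complexes, was the opposite case, at 139 and 138 CPM untreated and 138 and 132 under R848 in WT cells, and 286 and 287, then 290.5 and 283, without KAT8. Its differences were 1.05 ± 0.06 and 1.09 ± 0.06 (adjusted p = 8.1e-05 and 5.84e-05). Both genes kept their calls without any 1 library. Rbbp4 overlaps Sync on the other strand, as Cdk4, Rb1 and Rbl2 overlap Tspan31, Rcbtb2 with Lpar6, and Aktip, so these counts are uncertain. Cdkn1c lies on the same chromosome as Kat8, chromosome 7, at a distance of 15.53 Mb. Among the members, Plk1 lies at 5.74 Mb, Mki67 at 7.76 Mb and Rrm1 at 25.44 Mb. Whether DNA linked to Kat8 differs between the genotypes was not tested.

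Cdk4, the G1 kinase that phosphorylates RB, stood at 219.9 and 223 CPM in untreated KAT8-deficient cells against 157 and 154 in WT (0.51 ± 0.06, adjusted p = 0.00395, edgeR). Under R848 it stood at 184 and 175 against 168 and 169 (0.09 ± 0.06, adjusted p = 0.326), and the interaction was -0.42 ± 0.08 (adjusted p = 0.074). Cdkn2c, the CDK4 and CDK6 inhibitor p18, was higher without KAT8 under R848, at 23.0 and 20.0 CPM against 13.5 and 12.0 (0.75 ± 0.12, adjusted p = 0.00508). In untreated cells it stood at 23.1 and 19.8 CPM without KAT8 against 17.8 and 16.5 in WT, and was not called. Rb1, the retinoblastoma protein, fell with R848 in WT cells, from 44.8 and 45.3 to 32.3 and 33.6 CPM (-0.45 ± 0.09, adjusted p = 0.0108), and was lower without KAT8 in untreated cells, at 31.1 and 35.4 (-0.44 ± 0.09, adjusted p = 0.0309). The calls of Cdk4 and Cdkn2c held without any 1 library. The R848 call of Rb1 was lost without WT untreated library 2 or either WT R848 library (adjusted p from 0.0513 to 0.0833), and its genotype call without any library but the 2 of KAT8-deficient cells under R848 (0.0576 to 0.201). In WT cells R848 also lowered the RB relative Rbl2 (-0.28, adjusted p = 0.0335) and raised Cdk6 (0.34, adjusted p = 0.0228), and each of these was lost without any 1 of the 4 WT libraries.

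**Figure D5:**
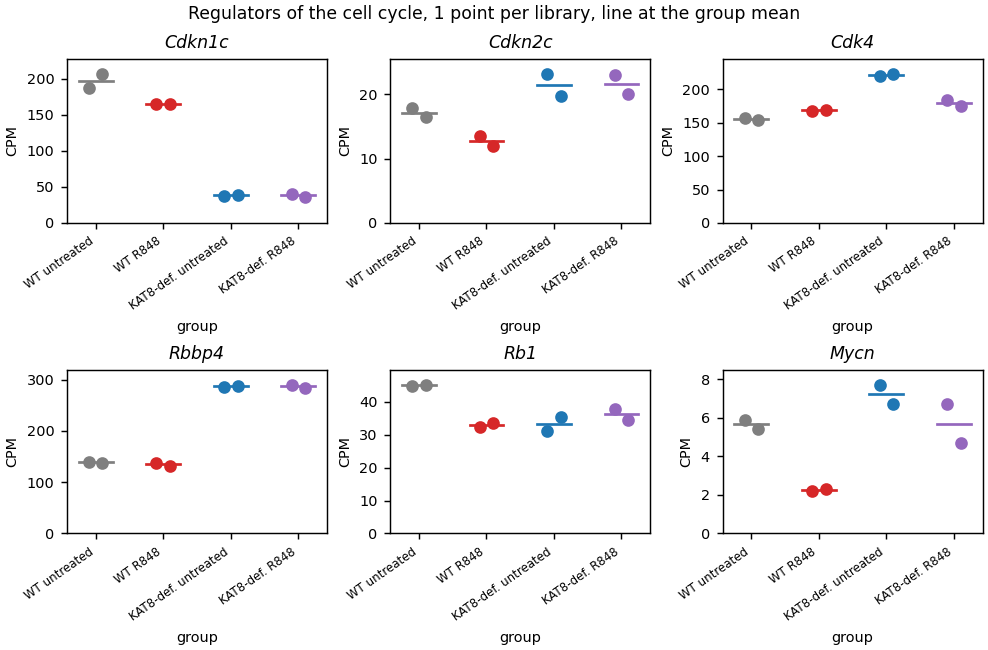
CPM of 6 regulators, 1 point per library and a line at each group mean, with axes from 0. Cdkn1c lies between 36.1 and 40.3 in all 4 KAT8-deficient libraries and at 165 or more in WT, and Rbbp4 shows the reverse order.

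Other regulators, named for their roles, showed no call in the pairwise comparisons. Cdkn1a (p21) stood at 73.0 to 88.0 CPM and Cdkn1b (p27) at 13.3 to 21.5 over the 8 libraries. Ccnd1 and Ccnd2, the D-type cyclins, stood at 34.1 to 40.6 and 17.9 to 22.9 CPM, and Mybl2 (B-MYB) at 7.61 to 10.4. Foxm1 stood at 19.1 to 26.2 CPM except in WT untreated library 1, at 10.996, so its comparisons with untreated WT cells rest on that library. Myc stood at 15.6 to 19.9 CPM in WT and 19.8 to 30.9 in KAT8-deficient libraries, with log2 differences of 0.61 ± 0.19 (adjusted p = 0.123, edgeR) untreated and 0.43 ± 0.19 (adjusted p = 0.182) under R848.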

How the data were processed

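Per the file headers, the authors deposited gene counts, 1 column per library, for 8 libraries. Per the submitters' processing notes, StringTie 1.3.0, HISAT2 and edgeR were used with mm10. The sources used here give no annotation, counting or strand settings. Per the labels' protocols, libraries were made from bead-captured mRNA.

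Symbols, positions and exon lengths came from GENCODE M21 (GRCm38, the build of mm10). Of 34745 identifiers, 34267 had a symbol. edgeR 4.0.16 (filterByExpr, 14040 genes, TMM, quasi-likelihood F-test) was fitted to all 8 libraries with 1 mean per group and 4 residual degrees of freedom. P-values were two-sided and adjusted over all genes tested by the Benjamini-Hochberg method, threshold 0.05. Standard errors are the absolute log2 change divided by the square root of F. CPM uses TMM library sizes. The floor of 3 counts is 0.14 to 0.162 CPM. Replicates differed beyond counting error (chi-square per degree of freedom 7.83 to 12.7). The method was tested on simulated data.

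Members, lists and tests were chosen with earlier results of these data known. Members called in a comparison are named, as are the 3 of each class with the smallest p or the highest level per length. Their levels are given in the libraries of at least 1 comparison, except for Bub1, and not always in every library. Pathway genes called are named, up to 4 per list and comparison, and Cdkn1a, Cdkn1b, Cdkn1c, Ccnd1, Ccnd2, Foxm1, Mybl2, Myc, Csf1r and Kat8 are given, some as a range of levels. Others, such as Ccne1 and Aen, were named after their values were seen. Alternatives were DESeq2 size factors, no filter, a minimum of 5 CPM in 2 libraries, DESeq2 1.42.0 (Wald test), a replicate block, the 4 libraries compared alone, and leaving out each library. Promoters came from RefSeq.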

Additional observations from a re-analysis of the deposited data

How the results depend on the processing

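No call of a gene changed direction under any alternative run. Of 10 calls of single members in the pairwise comparisons, each was lost under at least 1 alternative. The losses came in 15 of 60 processing settings and 46 of 80 fits without 1 library. Uncalled results were followed only for the members with the smallest p-values of their class in a comparison, and 18 of those 21 never changed. Without 1 library a group has 1 sample, which is assumed to vary like the other groups, and the cause of the lost calls was not tested.

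For R848 in WT cells, the 4 compared libraries alone gave 2 S phase and 0 mitotic calls, and DESeq2 gave 0 mitotic calls. Without 1 library the ranges were 0 to 4 S phase, 0 to 1 mitotic and 858 to 1826 of all genes (1916 with all). For R848 in KAT8-deficient cells, all genes called were 89, and 274 with no filter, 22 in the 4 libraries alone, 230 with DESeq2 and 2 to 186 without 1 library. There 2 to 5 S phase and 5 to 14 mitotic members were above 0, and the shift of S phase minus mitotic ran from -0.1847 to -0.0705.

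For the genotype in untreated cells, a minimum of 5 CPM gave 1 S phase call (Rrm1, adjusted p = 0.0408) and the 4 libraries alone gave 0 mitotic calls and 384 calls over all genes (600 with all libraries), against ranges of 0 to 1 and 66 to 606 without 1 library. For the genotype under R848, DESeq2 gave 1 S phase call, and mitotic calls were 1 with DESeq2 size factors, 4 with a minimum of 5 CPM, and 0 with the replicate block, the 4 libraries alone or DESeq2. Without 1 library the ranges were 0 to 3 S phase, 0 to 4 mitotic and 784 to 1894 of all genes (1911 with all), and the shift of S phase minus mitotic ran from -0.1397 to -0.0254.

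For the interaction, all genes called were 32, and 245 with no filter, 211 with DESeq2 and 6 to 208 without 1 library. The interaction in S phase minus mitotic, -0.05, ran from -0.1068 to 0.0075, and its untreated genotype shift from -0.0687 to 0.0028, so both ranges include 0. For the averaged genotype difference, DESeq2 gave 3 S phase and 2 mitotic calls, and without 1 library the ranges were 1 to 5, 1 to 8 and 1541 to 2247 of all genes (2606 with all). For the averaged R848 response, the replicate block gave 1 mitotic call, and the ranges were 3 to 5 S phase, 0 to 1 mitotic and 1204 to 2024 of all genes (2084 with all).

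In promoters, the shorter E2F core was in 88.24% of S phase and 77.27% of mitotic entries, and E2F letters in 0.0% of mitotic entries from 100 bases before to 50 after the start.

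The replicate numbers share no stated animal or day, and deviations from group means correlated by -0.042 to 0.053 between same-numbered libraries, so they were not treated as pairs. The block ended the calls of Mcm7 for R848 in WT cells (adjusted p = 0.0515) and of Cenpf and Kif11 under R848 (0.059 and 0.0551), and put Cdt1 past the threshold there (0.024). Depth limits the least abundant member, Ccne2, at 85 counts in its lowest library.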

Other observations

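Of 15 tested targets of p53, the factor that halts the cycle after DNA damage, 3 fell and 0 rose under R848 in WT cells (edgeR), against 6.7% of all genes lower and 6.94% higher, and the list's median was -0.01. Sesn1, a stress sensor upstream of mTOR, went from 45.6 and 39.8 CPM to 26.9 and 27.5 (-0.65 ± 0.08, adjusted p = 0.00131), and Phlda3, an inhibitor of AKT, from 38.3 and 41.98 to 21.8 and 26.4 (-0.74 ± 0.11, adjusted p = 0.0029). Trp53inp1 was the third, at -0.44 (adjusted p = 0.0168), and its call was lost without WT untreated library 1 or WT R848 library 1. Without KAT8, Sesn1 stood at 50.9 and 49.8 CPM untreated and 47.0 and 44.9 under R848, and its difference from WT under R848 was 0.75 ± 0.08 (adjusted p = 0.000918). Trp53inp1 was also higher without KAT8 under R848 (0.36, adjusted p = 0.0418), a call lost with DESeq2 and without any 1 of 5 libraries. The interaction for Sesn1 was 0.52 ± 0.12, with an adjusted p of 0.109, so the R848 responses were not shown to differ. Gadd45a was higher without KAT8 in untreated cells (0.38 ± 0.09, adjusted p = 0.0441), a call lost without any 1 of 6 libraries.

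Of 9 tested genes of growth signals, 2 rose and 2 fell under R848 in WT cells (against 6.94% and 6.7% of all genes), and 2 were higher and 2 lower without KAT8 under R848 (against 8.14% and 5.47% of all genes). The 2 comparisons share the WT R848 libraries. Myc, Max, Mxd1, Csf2ra and Csf2rb were called in neither. Mycn, a relative of Myc, stood at 5.87 and 5.43 CPM in untreated WT cells and 2.19 and 2.30 under R848 (-1.33 ± 0.21, adjusted p = 0.00423, edgeR), and at 7.71 and 6.69, then 6.69 and 4.67, without KAT8. Its genotype difference under R848 was 1.34 ± 0.21 (adjusted p = 0.0041), and both calls held without any 1 library. The MYC antagonist Mxi1 went from 62.5 and 62.1 CPM to 40.4 and 38.5 in WT cells (-0.66 ± 0.07, adjusted p = 0.000473), and was higher without KAT8 under R848 (0.40 ± 0.07, adjusted p = 0.00604), a call lost without WT R848 library 2. Csf1r, the receptor for M-CSF, stood at 842 and 879 CPM in untreated WT cells and 1099 and 1103 under R848, and without KAT8 at 707 and 732, then 796 and 882. It rose with R848 in WT cells by 0.36 ± 0.06 (adjusted p = 0.00724) and was lower without KAT8 under R848 (-0.39 ± 0.06, adjusted p = 0.00473). Its ligand Csf1 had the same directions, at 0.31 and -0.33, with adjusted p of 0.0248 and 0.0181. The R848 calls of Csf1r (without WT R848 library 1) and Csf1 (without any 1 of the 4 WT libraries) were lost, and so was the genotype call of Csf1 without either WT R848 library or KAT8-deficient R848 library 1.

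In 5 of the 149 other pathway and control genes and 0 of the 43 members, the 2 libraries of a group differed by 2 times or more, with the higher at 5 CPM or more. Ccnd3 stood at 8.67 and 30.5 CPM in untreated WT cells and at 24.2 and 10.6 in KAT8-deficient cells under R848, and Fen1 at 13.6 and 39.3 in untreated KAT8-deficient cells. Aen, a p53 target, stood at 14.6 and 47.0 CPM in WT and 13.995 and 46.5 in KAT8-deficient cells under R848, and Tfdp2, a partner of E2F, at 25.9 and 7.92 in the latter. Foxm1 was the fifth. Ccnd3 and Fen1 overlap a gene on the opposite strand, and Aen, Tfdp2 and Foxm1 overlap none at 1 CPM or more.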
